A study of Mus musculus with 18 samples.

Results

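The genes that copy DNA and those that divide the chromosomes were followed in cultured mouse bone marrow cells as macrophages became osteoclasts, with and without the estrogen receptor ERα. They were chosen by name, as 50 genes of textbook function in DNA replication (24 genes) or mitosis (26 genes). The choice was made with earlier results of these data known, so no test over the whole list was run. Of these, 45 had a probe on the array, out of 16593 genes with a probe, and 38 had a probe that was bright enough to be tested, 22 for replication and 16 for mitosis. Mki67, Ccnb1, Gins1, Gins2 and Aurkb had no annotated probe. Ccnb2, Cks1b, Cks2 and Bub1 were detected on no array, Kif20a and Cenpe on at most 1 and Hmmr on at most 2, so these genes have no value here.

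RNA was hybridised to 18 Illumina MouseRef-8 bead arrays, 3 for each of 6 groups. Cells came from the bone marrow of C57BL/6 mice that were either ERalphaf/f control, littermates in which the floxed receptor gene is intact (ERα f/f), or ERalphaf/f;LysM-Cre, in which Cre driven from the lysozyme M gene of myeloid cells deletes it (ERαΔLysM). Bone marrow-derived macrophages (BMMs), which the labels call osteoclast progenitors, had grown with 30 ng/ml M-CSF for 4 days. Pre-osteoclasts and mature osteoclasts had then received M-CSF with 30 ng/ml RANKL, the cytokine that drives osteoclast formation, for 2 and 4 days. By the study's own account the mice were 2 to 3 months old and the cells were treated with estradiol for 4 h before RNA was collected, which the labels do not mention. It is not stated whether the 3 arrays of a group were separate mice, so p-values measure the spread between these arrays, which may be technical.

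Cells prepare for division in order. The MCM helicase is loaded onto replication origins before S phase, cyclin E and E2F transcription factors commit the cell to S phase, polymerases and ligase copy the DNA from nucleotides that ribonucleotide reductase supplies, and CDK1 with mitotic cyclins and kinases then builds the spindle that separates the chromosomes. M-CSF drives the proliferation of macrophages, while multinucleated osteoclasts form by the fusion of mononuclear precursors and are regarded as post-mitotic. In cycling cells, promoters of replication genes are typically bound by E2F proteins, and those of mitosis genes by complexes that read the CHR element and the CCAAT box.

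Levels are log2 values after background correction and quantile normalisation, on which detection began near 5 to 6. The array-wide checks were as follows. The 2 probes for Esr1, the gene of ERα, were not detected on any of the 18 arrays, so the deletion could not be read from these data. Osteoclast markers were summed, on the linear scale, to 1067 to 1352 on BMM arrays, 62711 to 72232 on pre-osteoclast arrays and 82778 to 92092 on mature arrays, although Atp6v0d2 was detected on no array. Macrophage markers were at 29879 to 32363, then 3451 to 4248 and 2268 to 2559. The median raw signal fell in a brighter class of 11 arrays (163.3 or more) and a dimmer class of 7 (141.2 or less), of which 6 were ERαΔLysM arrays, so that brightness and genotype are partly confounded.

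To ask how the replication and division programmes changed with osteoclast formation, the stages were compared with both genotypes averaged. All 38 tested genes were lower in mature osteoclasts than in BMMs (Benjamini-Hochberg adjusted p under 0.05 in limma), where 33.4% of all 13409 tested probes were. Relative to pre-osteoclasts they were also all lower, against 28.9% of probes. Among the 38, Prim1 and Ccna2 were detected on no mature array and were tested because of the earlier stages. For Prim1 no fall from BMMs is established, since its BMM level was itself near the dimmest signal that counted as detected. None of the 38 was higher in mature osteoclasts than in BMMs, where 34.8% of probes were. In pre-osteoclasts 30 of the 38 were already lower than in BMMs and none was higher, against 25.9% and 30.1% of probes. The median difference between pre-osteoclasts and BMMs was -0.43 over the 38 genes and 0.046 over all probes, and that between mature osteoclasts and BMMs was -2.34 against 0.035. Since each array holds the RNA of a whole culture, fewer dividing cells and less of these transcripts in each cell cannot be told apart.

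Both sets were lower at each later stage. The mean of the 22 replication genes was 10.30 ± 0.06 (SD, n = 6 arrays) in BMMs, then 9.79 ± 0.06 and at last 7.95 ± 0.05. The mean of the 16 mitosis genes was 10.76 ± 0.02, 10.38 ± 0.06 and 8.37 ± 0.08. No array of one stage overlapped those of another for either mean. Gene by gene, all 6 mature arrays lay below all 6 BMM arrays for 38 of 38 genes (24.3% of probes), and all 6 pre-osteoclast arrays lay below all BMM arrays for 25 (17.5%). Mature arrays lay below all pre-osteoclast arrays for 37, with Ccna2 the exception (17.4%). These counts include Prim1 and Ccna2, which no mature array detected.

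**Figure D1:**
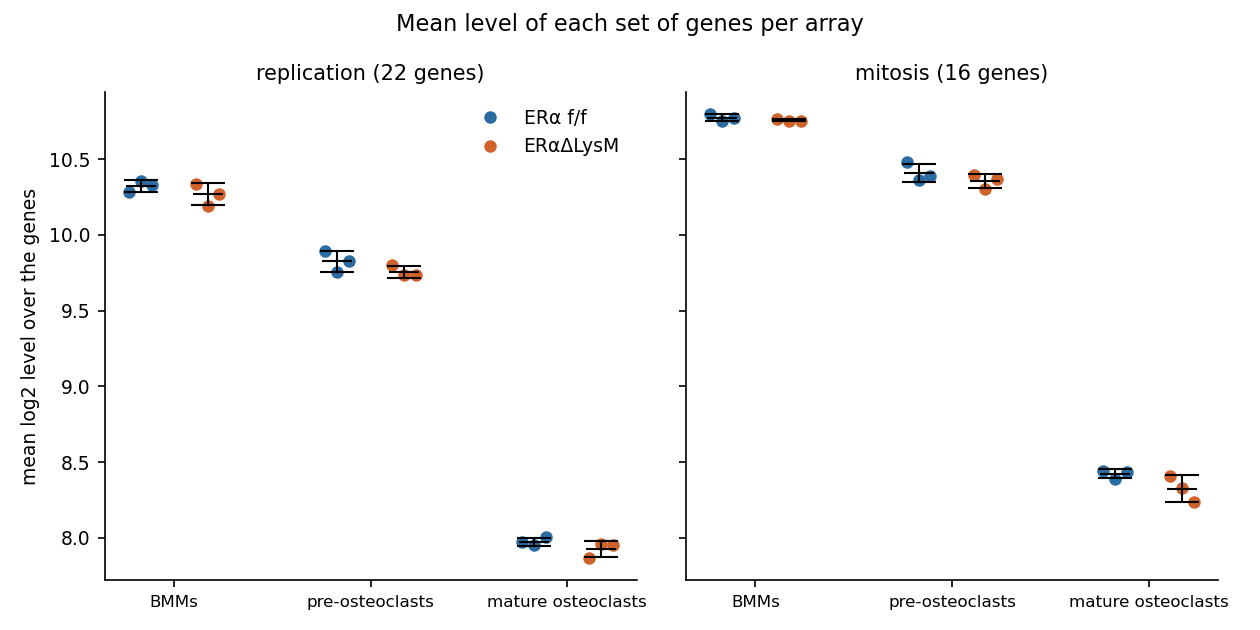
Mean log2 level of the 22 tested replication genes (left) and the 16 tested mitosis genes (right) on each of the 18 arrays, by stage and genotype; points are arrays and black bars the mean ± SD of 3 arrays. The replication mean ran from 10.19 to 10.36, then 9.73 to 9.89, then 7.87 to 8.0 over the 3 stages, and the genotypes lay close together at each stage.

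On the log2 scale, most of the fall came after the pre-osteoclast stage. Replication genes had a median difference of -0.46 between pre-osteoclasts and BMMs and of -1.80 between mature and pre-osteoclasts, and mitosis genes of -0.43 and -2.18. The share of a gene's whole fall that was present in pre-osteoclasts was taken as a ratio of log2 differences, not of transcript amounts. It had a median of 18.6% for replication genes (range -10.8% to 51.9%) and 17.7% for mitosis genes (range -14.3% to 44.1%). The gap between the mitosis mean and the replication mean was 0.47 ± 0.06 in BMMs, 0.59 ± 0.03 after 2 days of RANKL and 0.42 ± 0.09 after 4 days (SD, n = 6), and its values in pre-osteoclasts lay above those of both other stages on every array. This gap between means is on the array's own scale and was not tested.

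**Figure D2:**
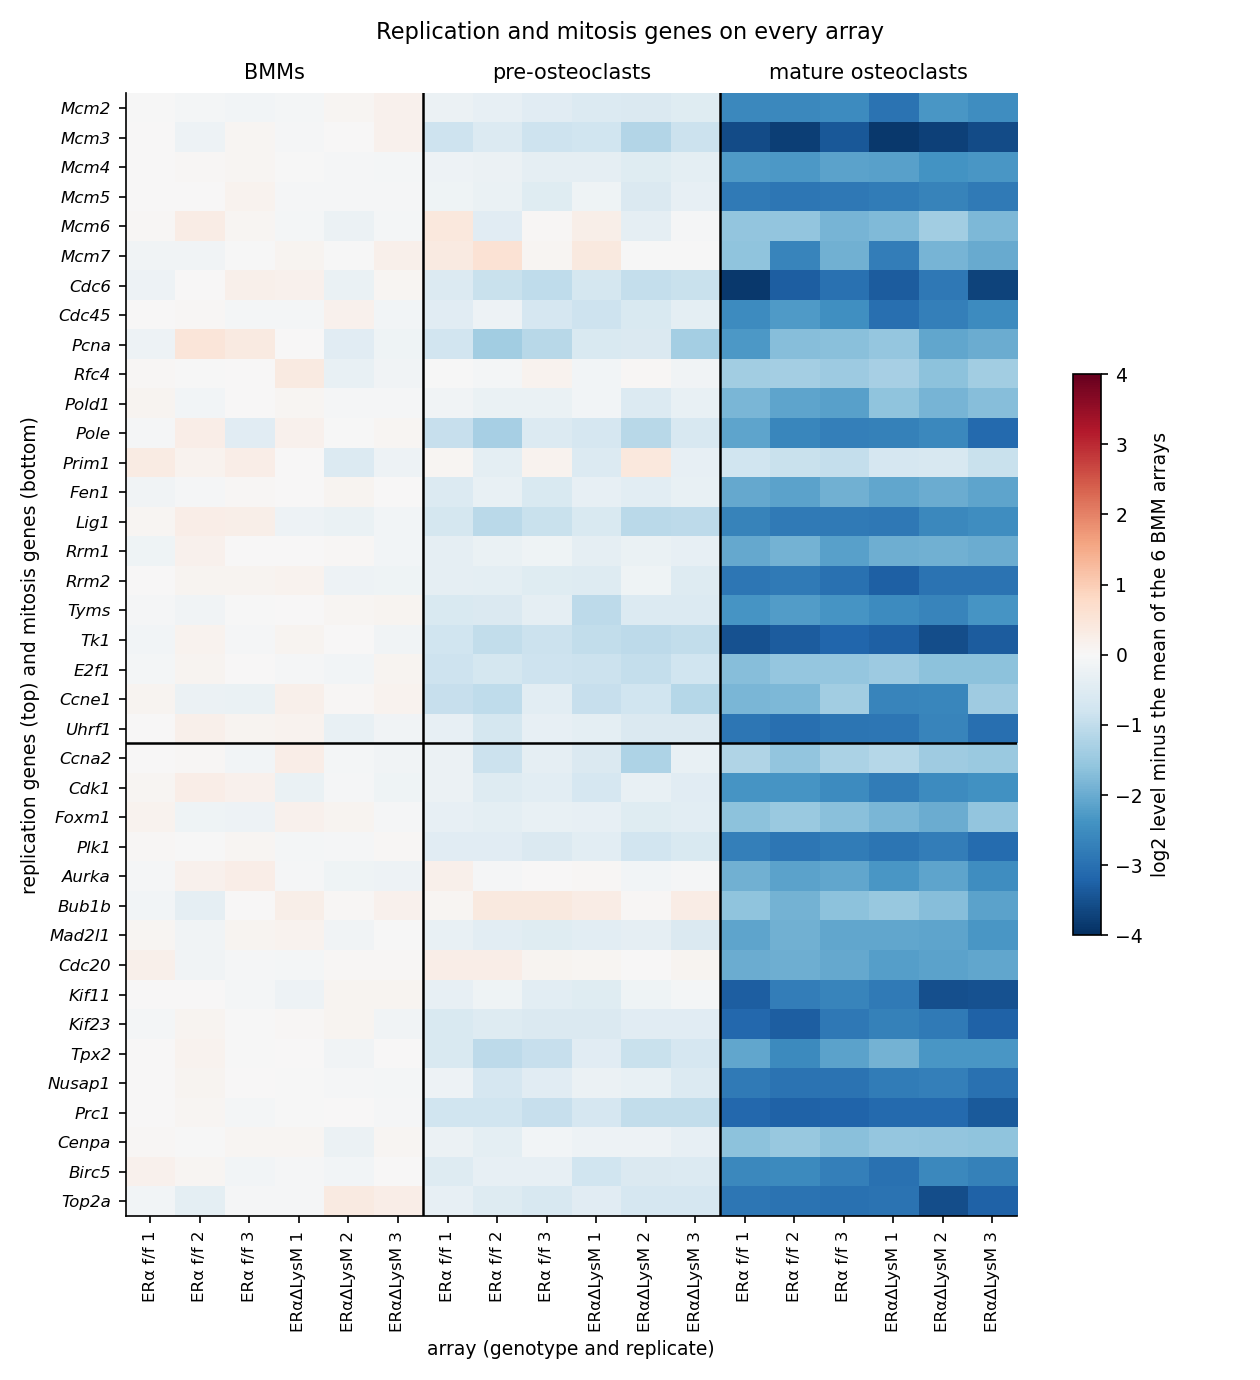
Log2 level of each tested gene on each array minus its mean over the 6 BMM arrays, with columns ordered by stage and genotype and rows by role; blue is lower and red higher, on a scale from -4 to 4. All 38 rows are blue in mature osteoclasts, while Mcm6, Mcm7, Rfc4, Prim1, Aurka, Bub1b and Cdc20 stay pale in pre-osteoclasts.

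Because the tested genes of each set moved together, promoters of the listed genes were searched for the motifs known from cycling cells. RefSeq promoter windows, 250 bases before to 50 after the annotated start on mouse GRCm38.p6, matched 41 of the 50 genes with 47 windows. Mitosis genes with no value here are counted too. Of these, Bub1, Ccnb2, Cks1b, Hmmr and Mki67 held a CHR match (defined below) and Ccnb1, Cks2 and Cenpe did not. The E2F core was searched as the word TTCCCGC, the word TTGGCGC, the word TTCGCGC or the word TTGCCGC. CHR was searched as the word TTTGAA or the word TTCGAA, and the CCAAT box as CCAAT, all on both strands. E2F matches can overlap one another or a CCAAT box. The E2F core was present in 64% of 25 replication windows and 18.2% of 22 mitosis windows, against 9.57% of all 32851 windows and 15.7% of those of tested genes. CHR showed the opposite order, with 16% of replication and 72.7% of mitosis windows. It was present in 19.2% of all windows and 14.1% of those of tested genes. CCAAT was present in 52% of replication and 86.4% of mitosis windows, against 37.4% of all windows and 37.8% of those of tested genes. A match is only a description of the letters, and these shares were not tested.

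The 5 replication promoters below show an E2F core in genes described further on. They are printed 5′ to 3′ on the gene's strand with E2F core and CCAAT matches in capitals (a CCAAT box on the other strand reads ATTGG). The stretches are chr8:75109309-75109428 (+) for Mcm5, from 200 to 81 bases before the start, and the 120 bases up to the start for Mcm6, chr1:128359706-128359825 (-), Prim1, chr10:128015095-128015214 (+), Rrm1, chr7:102441575-102441694 (+), and Uhrf1, chr17:56303217-56303336 (+). Mcm6 holds an E2F core on each strand, overlapping, at 109 to 100 and again at 46 to 37 bases before its start. The window of Mcm5 also holds 3 CCAAT boxes, all outside the printed stretch.
Mcm5: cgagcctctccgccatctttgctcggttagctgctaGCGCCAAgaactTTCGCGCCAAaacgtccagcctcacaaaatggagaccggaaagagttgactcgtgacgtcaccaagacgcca
Mcm6: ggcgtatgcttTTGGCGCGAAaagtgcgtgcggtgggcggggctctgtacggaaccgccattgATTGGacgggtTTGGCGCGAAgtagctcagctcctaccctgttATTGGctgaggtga
Prim1: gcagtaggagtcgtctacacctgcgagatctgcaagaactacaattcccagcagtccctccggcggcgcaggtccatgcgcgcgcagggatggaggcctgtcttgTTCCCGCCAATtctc
Rrm1: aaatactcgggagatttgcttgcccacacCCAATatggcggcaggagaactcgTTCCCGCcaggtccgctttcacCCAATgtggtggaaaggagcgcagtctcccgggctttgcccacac
Uhrf1: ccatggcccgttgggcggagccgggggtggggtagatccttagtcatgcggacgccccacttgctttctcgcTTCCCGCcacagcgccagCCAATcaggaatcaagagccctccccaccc

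The 5 mitosis promoters that follow show CHR with the CCAAT box, again in capitals, over the 120 bases before the start. They are Cdk1, chr10:69352913-69353032 (-), Cdc20, chr4:118437344-118437463 (-), Kif11, chr19:37376262-37376381 (+), Top2a, chr11:99024190-99024309 (-), and Prc1, chr7:80294356-80294475 (+), the downstream one of the 2 windows of that gene. In Cdk1, Cdc20, Kif11 and Top2a a CHR match ends within 18 bases of the start, and in Kif11 and Top2a it reads TTCAAA, the other strand of that word. The window of Cdk1 also holds 2 E2F cores, both outside the printed stretch.
Cdk1: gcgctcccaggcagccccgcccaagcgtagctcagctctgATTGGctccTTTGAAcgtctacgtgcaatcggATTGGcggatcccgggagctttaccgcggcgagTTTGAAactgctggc
Cdc20: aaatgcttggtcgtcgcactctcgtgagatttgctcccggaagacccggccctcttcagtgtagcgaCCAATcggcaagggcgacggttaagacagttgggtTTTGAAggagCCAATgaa
Kif11: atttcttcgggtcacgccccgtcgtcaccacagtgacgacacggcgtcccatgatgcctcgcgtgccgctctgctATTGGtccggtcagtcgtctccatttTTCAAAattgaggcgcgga
Top2a: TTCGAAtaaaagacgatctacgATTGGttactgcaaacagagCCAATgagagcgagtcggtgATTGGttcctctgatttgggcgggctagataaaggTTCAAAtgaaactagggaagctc
Prc1: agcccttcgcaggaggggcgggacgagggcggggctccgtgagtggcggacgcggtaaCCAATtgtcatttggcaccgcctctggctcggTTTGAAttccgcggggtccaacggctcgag

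The MCM helicase, the ring of 6 proteins that opens the double helix ahead of the fork, fell as a group, although 2 of its 6 subunits did not pass in pre-osteoclasts. In mature osteoclasts all 7 genes for the helicase and its loading were lower than in BMMs (median -2.57), and in pre-osteoclasts 5 of 7 were (median -0.35). Mcm3 was at 8.97 to 9.37 in BMMs (median 9.19), 8.02 to 8.63 in pre-osteoclasts (median 8.35) and 5.33 to 5.81 in mature osteoclasts (median 5.52), where 3 of 6 arrays detected it. It fell 12.6-fold to mature osteoclasts, a log2 difference of -3.65 ± 0.10 (SE, adjusted p = 5e-15), and -0.84 ± 0.10 of that was present in pre-osteoclasts. Background correction set the size of such falls for genes that ended dim. Without it the difference of Mcm3 was -2.05, and the mature difference of 10 genes, Mcm3, Mcm7, Cdc6, Cdc45, Pole, Prim1, Ccne1, Ccna2, Foxm1 and Kif11, was over 1.5 times smaller. Mcm4, the brightest subunit probe, ran from 12.73 to 12.89 in BMMs (median 12.83), 12.33 to 12.63 in pre-osteoclasts (median 12.45) and 10.42 to 10.69 in mature osteoclasts (median 10.54), without overlap. Its differences from BMMs were -0.35 ± 0.07 (adjusted p = 0.000273) and -2.27 ± 0.07 (adjusted p = 1.49e-14), the first of which did not pass with the mean of its 3 probes (-0.20, adjusted p = 0.0862) or without the dim arrays (-0.27, adjusted p = 0.0632).

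Mcm6 and Mcm7 did not pass the test in pre-osteoclasts. Mcm6 was at 11.40 to 11.91 in BMMs and 11.17 to 12.03 in pre-osteoclasts, overlapping ranges that differed by -0.029 ± 0.14 (adjusted p = 0.879). Mcm7 was at 7.92 to 8.28 and 8.06 to 8.64, a difference of 0.23 ± 0.17 (adjusted p = 0.28). Both were lower in mature osteoclasts, by -1.66 ± 0.14 and -2.14 ± 0.17, although Mcm7 was detected on only 4 of the 6 mature arrays and was at -1.07 without background correction. Mcm2 and Mcm5 had log2 differences of -0.44 and -0.34 in pre-osteoclasts and -2.57 and -2.81 later.

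Cdc6, the ATPase that loads the helicase onto origins, was at 9.24 to 9.69 in BMMs (median 9.54), 8.47 to 8.95 in pre-osteoclasts (median 8.61) and 5.63 to 6.65 in mature osteoclasts (median 6.17), so that the 3 stages did not overlap. The differences from BMMs were -0.84 ± 0.16 (adjusted p = 0.000285) and -3.34 ± 0.16 (adjusted p = 9.63e-12, 10.1-fold), the latter -2.10 without background correction. Cdc45, which joins the loaded ring to form the working helicase, was at 9.03 to 9.33 (median 9.13), 8.31 to 8.94 (median 8.63) and 6.14 to 6.89 (median 6.64). It differed by -0.53 and -2.58 (SE 0.11, adjusted p = 0.000535 and 1.64e-12), the latter -1.65 without background correction.

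At the fork itself, 5 of 7 genes were lower in pre-osteoclasts and 7 of 7 in mature osteoclasts (median -1.89). Pcna encodes the sliding clamp that holds the polymerases on DNA. It was at 8.63 to 9.59 in BMMs (median 9.02), 7.69 to 8.51 in pre-osteoclasts (median 8.15) and 6.80 to 7.55 in mature osteoclasts (median 7.24). Its fall in pre-osteoclasts, -0.98 ± 0.18 (1.97-fold, adjusted p = 0.000182), made up 51.8% of its whole fall of -1.89 ± 0.18. By genotype this share was 62.2% in ERα f/f and 38.6% in ERαΔLysM cells. The pre-osteoclast difference was -0.73 without background correction. Lig1, the ligase that joins Okazaki fragments, showed 10.91 to 11.44 (median 11.13), 10.07 to 10.56 (median 10.19) and 8.29 to 8.67 (median 8.42), again without overlap. It differed by -0.90 ± 0.10 (adjusted p = 7.65e-07) and -2.71 ± 0.10 (adjusted p = 3.07e-13), while the dimmest of its probes, near background, gave -0.29 in mature osteoclasts (adjusted p = 0.125).

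Pole, the catalytic subunit of the leading strand polymerase, was at 7.28 to 8.0 in BMMs (median 7.75), 6.40 to 7.18 in pre-osteoclasts (median 6.93) and 4.62 to 5.61 in mature osteoclasts (median 5.06), where 1 of 6 arrays detected it. Its stage ranges did not overlap. The difference in pre-osteoclasts was -0.87 ± 0.16 (adjusted p = 0.000208), or -0.48 without background correction. The size of the mature difference was not settled, since it was measured as -2.65 ± 0.16 (adjusted p = 2.3e-10) against a level near background and was -1.13 without the correction. Fen1, the nuclease that trims Okazaki fragments and the brightest of these genes, went from 12.11 to 12.37 (median 12.25) to 11.65 to 11.96 (median 11.88) and 10.10 to 10.32 (median 10.19). Its differences were -0.41 and -2.05 (SE 0.07, adjusted p = 0.000117 and 1.6e-13).

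Of the remaining 3 fork genes, 1 passed in pre-osteoclasts. Pold1, the catalytic subunit of the lagging strand polymerase, was at 10.94 to 11.15 (median 11.02), 10.48 to 10.94 (median 10.78) and 8.88 to 9.42 (median 9.2). The first step of -0.27 ± 0.09 (adjusted p = 0.018) had the highest adjusted p of those that passed, and without the dim arrays it was -0.13 (adjusted p = 0.468). Without the second ERαΔLysM pre-osteoclast array it was -0.21 (adjusted p = 0.0527). Rfc4, a subunit of the clamp loader, differed by -0.035 ± 0.10 in pre-osteoclasts (adjusted p = 0.793) and by -1.43 ± 0.10 in mature osteoclasts. Prim1, the primase that starts each new strand, was dim throughout, at 4.95 to 5.84 in BMMs (4 of 6 arrays detected) and 4.95 to 5.94 in pre-osteoclasts (3 of 6). It was not well above background on any of the 6 mature arrays (4.56 to 4.86), so that its measured difference of -0.81 ± 0.15 gives no fold.

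All 4 genes of nucleotide supply were lower at both steps, with medians of -0.51 and -2.69 against BMMs. Tk1, the thymidine kinase of S phase, was at 11.67 to 11.95 in BMMs (median 11.79), 10.74 to 11.02 in pre-osteoclasts (median 10.82) and 8.24 to 8.63 in mature osteoclasts (median 8.47). It lost -0.95 ± 0.08 (1.93-fold, adjusted p = 3.39e-08) and then reached -3.36 ± 0.08 (10.2-fold, adjusted p = 1.54e-15), whereas its dimmest probe, near background, gave -0.37 (adjusted p = 0.0565). Rrm1, the large subunit of ribonucleotide reductase, moved from 11.20 to 11.55 (median 11.39) to 11.02 to 11.20 (median 11.07) and 9.2 to 9.47 (median 9.4), differences of -0.29 and -1.99 (SE 0.07, adjusted p = 0.00362 and 3.6e-13). The first of these did not pass without the dim arrays (-0.28, adjusted p = 0.121). Rrm2, the S-phase-limited small subunit, and Tyms, thymidylate synthase, had differences of -0.41 and -0.61 in pre-osteoclasts and -2.97 and -2.41 later.

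All 3 genes of the G1/S regulators and S-phase chromatin fell at both steps. E2f1, a transcription factor that turns on S-phase genes, was at 10.92 to 11.15 in BMMs (median 11.02), 10.09 to 10.32 in pre-osteoclasts (median 10.22) and 9.33 to 9.58 in mature osteoclasts (median 9.45), with no overlap. Its first difference of -0.82 ± 0.07 (adjusted p = 2.77e-08) was 51.9% of the whole, -1.58 ± 0.07. Ccne1, cyclin E1, was at 8.24 to 8.71 (median 8.60), 7.37 to 8.09 (median 7.59) and 5.89 to 7.12 (median 6.69), with differences of -0.87 ± 0.18 (adjusted p = 0.000691) and -1.95 ± 0.18 (adjusted p = 7.42e-08), the first 44.8% of the second, which was -1.14 without background correction. Uhrf1, which guides maintenance DNA methylation at the fork, went from 12.14 to 12.63 (median 12.50) through 11.74 to 12.12 (median 11.95) to 9.43 to 9.79 (median 9.53). Only 16.8% of its fall of -2.90 ± 0.10 (7.45-fold, adjusted p = 8.29e-14) was present in pre-osteoclasts.

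**Figure D3:**
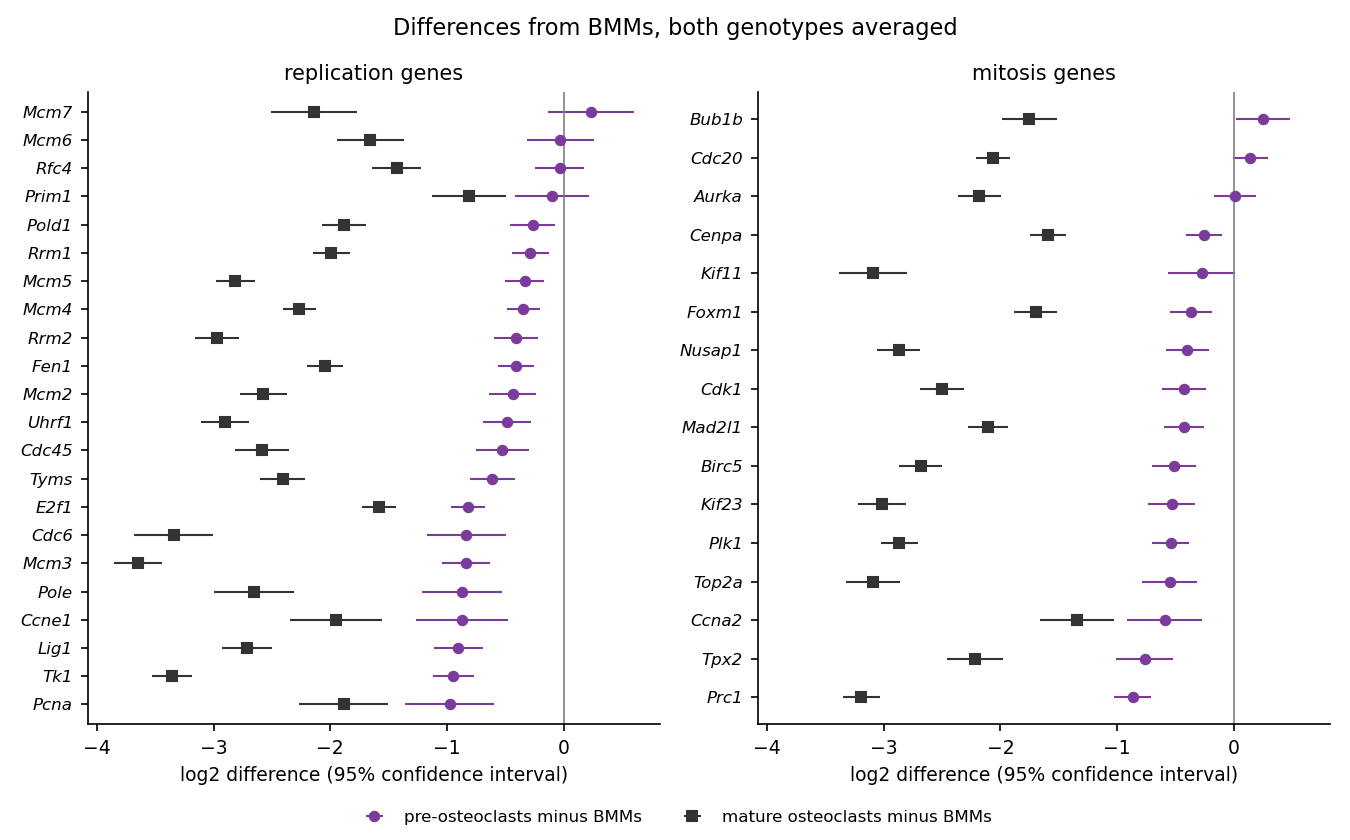
Log2 difference from BMMs of each tested gene in pre-osteoclasts (circles) and mature osteoclasts (squares), averaged over the genotypes, with 95% confidence intervals from limma and the genes of each set sorted by the pre-osteoclast difference. All 38 squares lie left of 0, while Mcm6, Mcm7, Rfc4, Prim1, Aurka, Bub1b, Cdc20 and Kif11 did not pass the test in pre-osteoclasts.

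Turning to mitosis, all 3 tested genes for the mitotic cyclins, CDK1 and FOXM1 were lower at both steps. Cdk1, the kinase that drives entry into mitosis, was at 11.20 to 11.72 in BMMs (median 11.48), 10.80 to 11.24 in pre-osteoclasts (median 11.03) and 8.67 to 9.10 in mature osteoclasts (median 8.99). The BMM and pre-osteoclast ranges met, with a difference of -0.43 ± 0.09 (adjusted p = 0.000611), and mature osteoclasts stood apart at -2.50 ± 0.09 (5.65-fold, adjusted p = 2.04e-13). Ccna2, cyclin A2, was dim, at 5.93 to 6.33 in BMMs (median 6.04) and 4.85 to 5.85 in pre-osteoclasts (median 5.61, 4 of 6 arrays detected). It was not well above background on the 6 mature arrays (4.49 to 4.92), a measured difference from BMMs of -1.34 (adjusted p = 5.49e-07 in limma). Set against the dimmest signal that counted as detected, it was at least 1.46-fold lower than in BMMs, a bound that was not itself tested. Its first difference, -0.59 ± 0.15 (adjusted p = 0.00286), did not pass without the dim arrays (-0.48, adjusted p = 0.0603) and was -0.19 without background correction. Foxm1, a transcription factor of mitosis genes, fell at both steps, with differences of -0.37 and -1.70 (-1.12 without background correction).

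Of the 2 mitotic kinases, 1 passed in pre-osteoclasts. Plk1, which acts on centrosomes and the spindle, was at 11.88 to 12.04 in BMMs (median 11.99), 11.22 to 11.55 in pre-osteoclasts (median 11.47) and 8.91 to 9.23 in mature osteoclasts (median 9.14). It was lower without overlap at each stage, by -0.54 ± 0.07 (adjusted p = 8.13e-06) and -2.87 ± 0.07 (7.29-fold, adjusted p = 3.16e-15). Aurka, the centrosomal kinase Aurora A, was at 10.60 to 11.07 in BMMs and 10.70 to 11.01 in pre-osteoclasts, a difference of 0.011 ± 0.09 (adjusted p = 0.925) whose sign turned with arrays centred on their median (-0.21). In mature osteoclasts it was at 8.31 to 8.87, below all earlier arrays.

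Of the 3 spindle checkpoint genes, 1 passed the test in pre-osteoclasts. Cdc20, which activates the anaphase-promoting complex once the checkpoint is satisfied, was at 11.73 to 12.06 in BMMs (median 11.86), 11.88 to 12.15 in pre-osteoclasts (median 11.98) and 9.67 to 9.92 in mature osteoclasts (median 9.82). The first 2 ranges overlapped, with a difference of 0.14 ± 0.07 (adjusted p = 0.103) that was -0.064 with arrays centred on their median, and the last was 4.18-fold below BMMs (-2.06 ± 0.07, adjusted p = 1.03e-13). Bub1b, the checkpoint kinase BubR1, was at 8.73 to 9.31, 9.14 to 9.48 and 6.95 to 7.56, with a first difference of 0.25 ± 0.11 (adjusted p = 0.0648). Within ERα f/f cells alone it was 0.43 ± 0.16 (adjusted p = 0.0335), where 24% of all probes rose. No other gene rose by its brightest probe, but 2 dimmer probes of Cdc20 also did in ERα f/f cells (0.37 ± 0.14 and 0.53 ± 0.14, adjusted p = 0.0469 and 0.00494). The difference of Bub1b was 0.072 ± 0.16 in ERαΔLysM cells. Mad2l1, the checkpoint protein MAD2, fell at both steps (-0.43 and -2.10).

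**Figure D4:**
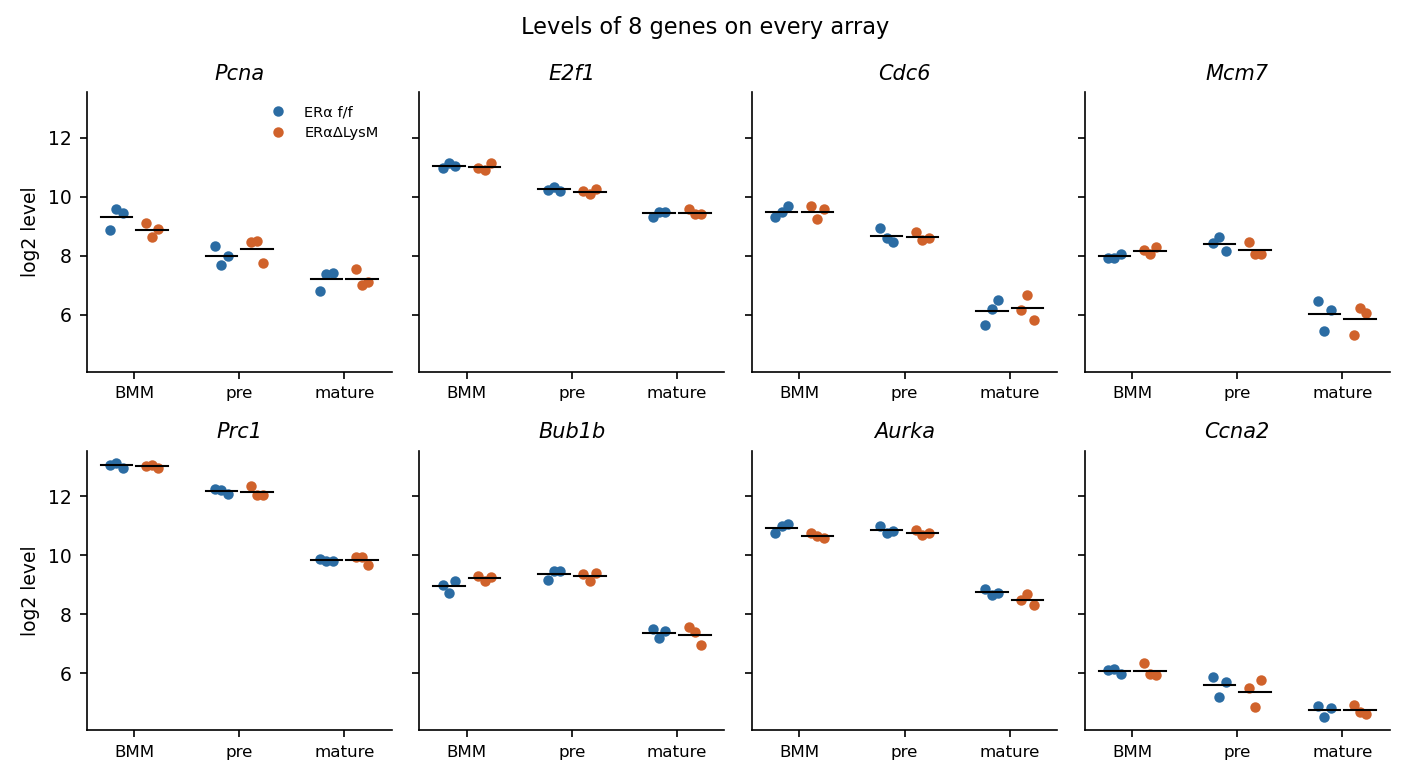
Log2 level of 8 genes on each array in BMMs (BMM), pre-osteoclasts (pre) and mature osteoclasts (mature), by genotype; points are arrays and bars the mean of 3. Averaged over the genotypes, Pcna and E2f1 have 51.8% and 51.9% of their log2 fall by the pre-osteoclast stage, and Cdc6 and Prc1 25% and 27.1%. Mcm7, Bub1b and Aurka have none that passed the test, while Ccna2 is near background in mature osteoclasts.

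Kinesins and other spindle and cytokinesis genes had a median of -3.01 in mature osteoclasts, and 4 of 5 were lower in pre-osteoclasts. Prc1, which bundles the microtubules of the central spindle, was at 12.97 to 13.13 in BMMs (median 13.04), 12.04 to 12.35 in pre-osteoclasts (median 12.17) and 9.68 to 9.93 in mature osteoclasts (median 9.85). It was lower at each stage without overlap, by -0.87 ± 0.07 (adjusted p = 3.53e-08) and -3.19 ± 0.07 (9.14-fold, adjusted p = 9.82e-16). Kif11, the motor that pushes the spindle poles apart, was at 9.03 to 9.36 (median 9.27) and 8.75 to 9.17 (median 8.99), ranges that overlapped, with a difference of -0.28 ± 0.14 (adjusted p = 0.0984). In mature osteoclasts it was at 5.72 to 6.60, -3.09 from BMMs, or -1.88 without background correction. Kif23, a motor of the central spindle, was at 10.17 to 10.44 (median 10.33), 9.70 to 9.88 (median 9.78) and 7.02 to 7.61 (median 7.32), differences of -0.53 and -3.01. Tpx2, which activates Aurora A on the spindle, was at 9.16 to 9.43 (median 9.30), 8.26 to 8.84 (median 8.51) and 6.74 to 7.4 (median 7.07), and Nusap1, a microtubule-binding protein, differed by -0.40 and -2.87.

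All 3 tested genes of centromeres and chromosomes fell at both steps. Cenpa, the histone H3 variant that marks centromeres, was the brightest of the 38 genes, at 13.32 to 13.63 in BMMs (median 13.60), 13.15 to 13.44 in pre-osteoclasts (median 13.32) and 11.89 to 12.03 in mature osteoclasts (median 11.96). It was lower by -0.25 ± 0.07 (adjusted p = 0.00727) with overlapping ranges, a call not made with arrays centred on their median (-0.43, adjusted p = 0.068), and then by -1.59 ± 0.07 (3.01-fold, adjusted p = 5.38e-12). Birc5, the survivin subunit of the chromosomal passenger complex, showed 12.06 to 12.35 (median 12.16), 11.37 to 11.86 (median 11.65) and 9.19 to 9.63 (median 9.53). Top2a, the topoisomerase that untangles sister chromatids, was at 10.86 to 11.61 (median 11.21), 10.58 to 10.94 (median 10.69) and 7.71 to 8.36 (median 8.29), differences of -0.55 ± 0.11 (adjusted p = 0.000379) and -3.09 ± 0.11 (8.53-fold, adjusted p = 1.68e-13).

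Markers of another cell type moved with these results. Of 10 markers of neutrophils and granulocyte precursors, which also divide in marrow, 9 had a probe and all 9 were detected on every BMM array. Their summed level was 13784 to 22885 on BMM arrays, 5314 to 13539 on pre-osteoclast arrays and 2790 to 4661 on mature arrays, where Mpo, Prtn3 and Ctsg were detected on no array. Megakaryocyte and mast cell markers summed to 5868 to 8687, then 553 to 761 and 372 to 576, of which nearly all was Pf4, platelet factor 4 (12.74, 9.06 and 8.35 on average), while the other 4 were near background. The part of these cells in the result was not tested. Of 5 erythroid, 5 T and NK cell and 5 stromal markers with a probe, none was detected on all arrays of any stage, and of 4 B cell markers only Cd79b was, in BMMs (6.09 on average).

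Other genes of the same pathways were taken from lists chosen by function, again with earlier results of these data known. They were described beside the shares of all probes. These shares were 25.9% lower and 30.1% higher in pre-osteoclasts and 33.4% lower and 34.8% higher in mature osteoclasts. Of 30 other replication genes tested of 37 listed, 11 fell and 3 rose in pre-osteoclasts and 24 fell and 1 rose in mature osteoclasts (median -1.13). Clspn, the checkpoint adaptor claspin, reached -3.42 ± 0.07 (adjusted p = 3.83e-16), Cdc7, the kinase that fires origins, -3.12 ± 0.12 and Timeless, a fork protection factor, -3.02 ± 0.12. Wdhd1, counted among the 24 that fell, was detected on no mature array. Orc2, Orc3, Orc4 and Orc5, subunits of the origin recognition complex, and Rfc2 did not pass. The one that rose was Chaf1b, a subunit of the histone chaperone CAF-1, from 10.58 ± 0.08 to 11.54 ± 0.06 (SD, n = 6, adjusted p = 3.68e-10).

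Of 33 other mitosis genes tested of 48 listed, 21 fell and 4 rose in pre-osteoclasts, and 30 fell and 2 rose in mature osteoclasts (median -2.61), to be read against the same shares of all probes (25.9% and 30.1%, then 33.4% and 34.8%). Kif4, a chromosome-bound kinesin, reached -3.75 ± 0.13 (adjusted p = 9.18e-14), Spc25, a kinetochore subunit, -3.64 ± 0.11 and Plk4, the kinase of centriole duplication, -3.35 ± 0.22, with Plk4 detected on 2 of 6 mature arrays. Cdc25b, Cdc25c, Ube2c, Ttk and Smc2, also counted as fallen, were detected on no mature array. They were tested because of the earlier stages, where Ttk and Smc2 were detected on only 3 and 2 BMM arrays. The size of these falls was not settled. The 2 that rose did so by the pre-osteoclast stage. Mad1l1, the checkpoint protein MAD1, was at 7.16 ± 0.30, 9.49 ± 0.08 and 9.51 ± 0.07 over the 3 stages (SD, n = 6, adjusted p = 4.55e-12). Espl1, separase, was at 7.59 ± 0.21, 8.53 ± 0.07 and 8.60 ± 0.13 (adjusted p = 2.22e-08).

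Among 14 E2F, RB and DREAM complex genes tested of 17, 10 fell in mature osteoclasts and none rose (median -0.76), where 33.4% of all probes fell and 34.8% rose. E2f2, an activator E2F, went from 10.99 ± 0.21 in BMMs to 8.60 ± 0.17 and 6.29 ± 0.41 (SD, n = 6), a difference of -4.70 ± 0.15 (adjusted p = 6.3e-14) of which -2.39 was present in pre-osteoclasts. Rbl1, the pocket protein p107, reached -3.07 ± 0.09. Mybl2, the B-MYB factor of mitosis genes, was at 0.12 in pre-osteoclasts (adjusted p = 0.266) and -2.81 ± 0.09 in mature osteoclasts. E2f7, counted among the 10 that fell, was detected on no mature array. E2f3, E2f4, Rbl2 and Lin37 did not pass in mature osteoclasts. Of 10 genes tested of 13 for the anaphase-promoting complex and its cofactors, 4 fell, 3 rose and 3 did not pass in mature osteoclasts (median -0.068), shares near those of all probes, with Anapc5 at -1.23 ± 0.08 and Anapc13 at 1.21 ± 0.18. Fzr1, the cofactor CDH1, was -1.10 ± 0.09 by its brightest probe but 0.64 by another (adjusted p = 3.74e-07), so its direction was not settled.

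Whether ERα changed these genes was asked at each stage, since the study addressed how estrogens lower osteoclast number. None of the 38 genes passed between ERαΔLysM and ERα f/f cells in BMMs, pre-osteoclasts or mature osteoclasts, where 0.321%, 0.0746% and 0.172% of probes did in either direction. At an unadjusted p under 0.05 the counts were 5, 0 and 2, and the smallest adjusted p-values were 0.245, 0.608 and 0.663 (limma). The median differences were -0.024, -0.075 and -0.057, and 23, 30 and 23 of the 38 genes were below 0. The 95% confidence interval lay within 1 on the log2 scale of no difference for 38, 38 and 37 genes. It lay within 0.5 for 26, 28 and 27, so in the others a difference wider than 0.5 was not excluded. Smaller differences could have been missed in any of the genes. No other gene of the pathway lists passed a genotype test.

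**Figure D5:**
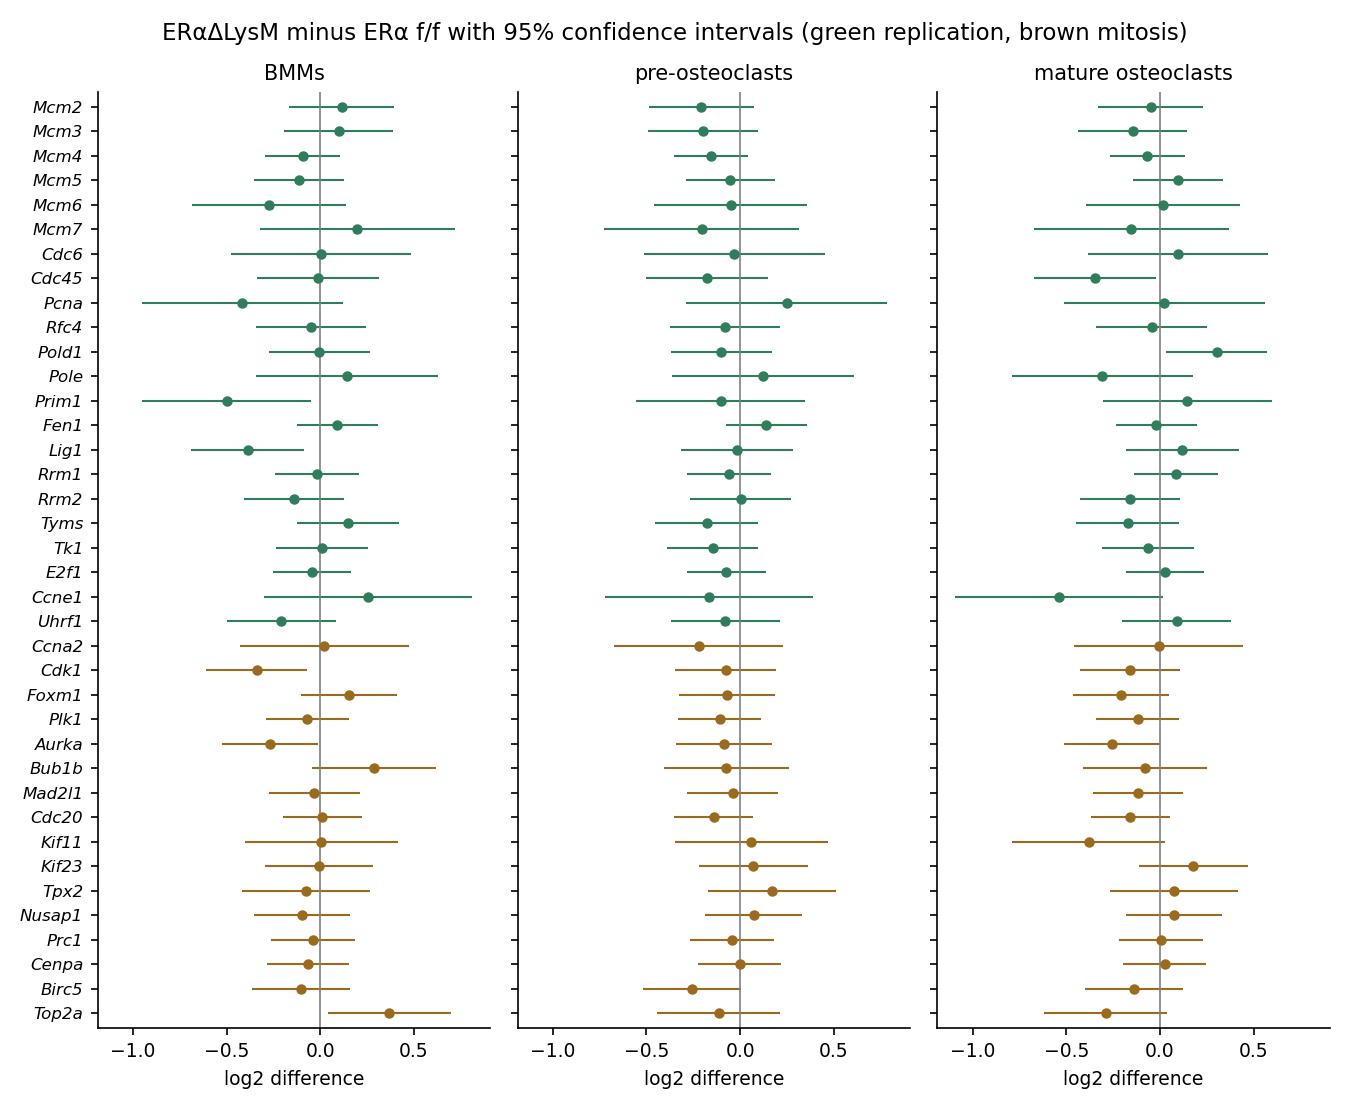
Log2 difference between ERαΔLysM and ERα f/f cells for each tested gene in BMMs, pre-osteoclasts and mature osteoclasts, with 95% confidence intervals from limma; replication genes are green and mitosis genes brown. Differences by the brightest probe lie between -0.50 and 0.37, -0.26 and 0.25, and -0.54 and 0.30, and no gene passed after adjustment.

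The widest genotype differences by the brightest probe of each gene show the size of what was measured. Some dimmer probes differed more, in both directions. In pre-osteoclasts a dimmer Cdc20 probe averaged 9.44 in ERα f/f and 8.91 in ERαΔLysM cells. In mature osteoclasts a dimmer Birc5 probe averaged 9.30 and 8.70, and a dimmer Rfc4 probe 6.09 and 6.45. None of the 59 tested probes passed a genotype test. In BMMs Top2a was at 11.16, 10.86 and 11.22 in ERα f/f and 11.21, 11.61 and 11.53 in ERαΔLysM cells, overlapping at the edge, with a difference of 0.37 ± 0.15 (adjusted p = 0.313) that turned to -0.27 with arrays centred on their median. Bub1b was at 8.99, 8.73 and 9.12 against 9.31, 9.14 and 9.25, a difference of 0.28 ± 0.16 (adjusted p = 0.448) that turned to -0.23 under the same setting. Prim1 was at 5.84, 5.66 and 5.78 against 5.53, 4.95 and 5.31, without overlap but near background, a difference of -0.50 ± 0.21 (adjusted p = 0.324). Pcna was at 8.88, 9.59 and 9.44 against 9.12, 8.63 and 8.91, which overlapped, with -0.42 ± 0.25 (adjusted p = 0.498). With arrays centred on their median it was -0.92 (adjusted p = 0.0462), a setting in which the median of all probes was itself shifted by -0.43.

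In pre-osteoclasts Pcna was 0.25 ± 0.25 higher in ERαΔLysM cells (8.48, 8.51 and 7.74 against 8.32, 7.69 and 7.98, adjusted p = 0.871), the opposite sign to BMMs. Tpx2 was at 8.84, 8.41 and 8.61 against 8.70, 8.26 and 8.37, a difference of 0.17 ± 0.16 that was -0.057 with arrays centred on their median. Birc5 was at 11.37, 11.60 and 11.63 against 11.66, 11.86 and 11.86, without overlap and with a difference of -0.26 ± 0.12 (adjusted p = 0.608). Ccna2 was at 5.5, 4.85 and 5.76 against 5.85, 5.2 and 5.71, a difference of -0.22 ± 0.21 that was 0.039 without the second ERαΔLysM array.

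In mature osteoclasts Pold1 was at 9.42, 9.18 and 9.33 against 9.22, 8.93 and 8.88, overlapping, with a difference of 0.30 ± 0.13 (adjusted p = 0.663). Kif23 differed by 0.18 ± 0.14 and Kif11 by -0.38 ± 0.19 (6.41, 5.72 and 5.75 against 5.96, 6.48 and 6.60), both with overlap. Ccne1 was at 5.89, 5.90 and 7.11 against 6.68, 6.71 and 7.12, so that 2 of the 3 ERαΔLysM arrays were low and the third was not, with a difference of -0.54 ± 0.26 (adjusted p = 0.722).

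The fall itself was also compared between genotypes. In pre-osteoclasts 24 genes fell in ERα f/f cells and 27 in ERαΔLysM cells (21.7% and 21.9% of probes), and in mature osteoclasts 38 and 37 (28.9% and 28.6%), Prim1 being the one that did not pass. The count of 27 was 10 with arrays centred on their median, 10 without the dim arrays and 20 to 27 with 1 array left out. No gene passed a test of the interaction of genotype with stage, where 0.0522%, 0.0597% and 0.00746% of probes did for the 3 stage differences, and at most 5 of the 38 had an unadjusted p under 0.05. The nearest was Top2a, where the difference between the falls to mature osteoclasts was -0.66 (ERαΔLysM minus ERα f/f, 95% confidence interval -1.12 to -0.20) (adjusted p = 0.374).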

How the data were processed

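RNA of 18 samples was measured on Illumina bead arrays. The authors deposited intensity values as scanned, neither background-subtracted nor normalised, each with a detection p-value, and log2 values that they had preprocessed with the lumi package, whose settings are not given in the sources used here. The intensities were corrected and quantile normalised with neqc (limma 3.58.1, R 4.3.3, offset 16), which differed from the deposited log2 values by at most 0.0281. Of 25697 probes, 13409 were detected (p under 0.05) by 3 or more arrays and were tested. A linear model of the 6 groups over all 18 arrays was fitted with limma, with Benjamini-Hochberg adjustment over all tested probes. Of the deposited probes, 23978 had a gene symbol and 1719 had none, by the platform annotation of a later array version than the one the study names. The brightest tested probe stood for a gene. Genes chosen for fuller description were the 5 widest falls per stage, the 2 widest genotype differences each way and the brightest gene of each role. Values on single arrays are printed for most of the genotype differences, and the rest are given by ranges or differences. The members and lists were chosen with earlier results of these data known. The number of arrays limits the precision, with a median SE of 0.0921 for stages and 0.130 for genotypes. Promoter windows were read with Python 3 and pandas. No columns of the authors' own comparisons were used.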

Additional observations from a re-analysis of the deposited data

Results flagged for a closer look

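Within stages of 6 arrays, 84 sets of values were checked for an array far from the others, of which chance alone would pick about 5 in 100, and 3 were. The mean of the mitosis genes in BMMs was 10.8 on the first ERα f/f array, where the nearest array was at 10.77 and the lowest at 10.75, a gap of a few hundredths. Cenpa in BMMs was 13.32 on the second ERαΔLysM array, where the next lowest was 13.52 and the highest 13.63. Uhrf1 in mature osteoclasts was 9.79 on the second ERαΔLysM array, above the others at 9.43 to 9.56.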

How the results depend on the processing

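Of 13 other settings and 18 fits that each left out 1 array, the medians of the stage comparisons kept their direction. The count of genes that passed ran from 23 to 32 for pre-osteoclasts against BMMs (with 1 gene passing as higher in 2 of the settings) and from 37 to 39 for mature osteoclasts, where 39 came without the filter. Replicate numbers showed no clear pairing of the arrays, although with 3 arrays in a group a pairing could have been missed. Deviations from the group means correlated at -0.11 to 0.35 (median 0.0195, 1 of 9 over 0.1) between same-numbered arrays of the 2 genotypes at a stage. They correlated at -0.23 to 0.11 (median 0.0163, 1 of 18 over 0.1) between same-numbered arrays of 1 genotype at different stages. With the number as a replicate block 30, 38 and 38 genes passed for the 3 stage comparisons, and 0 in each genotype comparison.

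Medians of replication then mitosis genes moved as follows. Without background correction they were -0.41 for replication at the first step (BMMs to pre-osteoclasts), -1.87 and -1.94 for mature osteoclasts against BMMs, and -1.47 and -1.83 against pre-osteoclasts. With arrays centred on their median they were -0.65 and -0.62, -2.53 and -2.67, and -1.86 for replication in the last. In that setting the genotype medians were -0.62 and -0.65 in BMMs, -0.35 and -0.31 at the next stage and -0.16 and -0.29 at the last, 5 genes passed as lower in BMMs, and the median of all probes was -0.43, -0.20 and -0.13 for the 3 stages. Without a filter the mitosis medians were -0.28, -2.06 and -1.67. With a stricter filter the replication median in mature osteoclasts was -2.41. When probes of a gene were averaged, the medians were -2.07 and -2.20 in mature osteoclasts and -1.67 and -2.10 from pre-osteoclasts. Without the dim arrays the replication median was -2.40 in mature osteoclasts and -1.86 from pre-osteoclasts, the mitosis median -2.06 from pre-osteoclasts, and the genotype medians -0.11 for replication in BMMs and -0.0531 for mitosis in mature osteoclasts.

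In ERαΔLysM cells alone, 10 genes passed as lower in pre-osteoclasts, in place of 27, both with centring on the median and without the dim arrays, which leave 1 array in each ERαΔLysM group, assumed to vary like the others. The differences of Top2a and Bub1b in BMMs turned to -0.27 and -0.23, and that of Tpx2 in pre-osteoclasts to -0.0567, with centring, and that of Ccna2 in pre-osteoclasts to 0.0392 without the second ERαΔLysM array. The causes were not tested.

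Single arrays left out in turn gave 30 to 31 genes in pre-osteoclasts and 38 in both mature comparisons. The medians ran from -1.87 to -1.78 for replication and -2.21 to -2.15 for mitosis from pre-osteoclasts to mature osteoclasts, and the genotype medians of mitosis genes from -0.11 to -0.0146 (pre-osteoclasts) and -0.13 to -0.0415 (mature osteoclasts). Values near background limit Prim1, Ccna2, Pole, Mcm3 and Mcm7, and the dim signal of these probes bounds how deep a fall could be measured.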

Other observations

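Replication-coupled histone genes, whose products package newly made DNA, did not follow the genes above. Of 42 tested of 55 listed, 19 fell and 20 rose in mature osteoclasts against BMMs (median 0.09), where 33.4% of all probes fell and 34.8% rose. By class, all 9 H2B genes rose, with a median of 2.48 and a range of 1.47 to 3.70, while 10 of 13 H2A genes fell and 3 rose (median -1.91). H2bc8, the H2B gene at 1.47, and H2ac6, an H2A gene that rose, were detected on no BMM array. They were tested because of the later stages, so the size of their rise was not settled. Of 9 H4 genes 5 rose and 3 fell, of 9 H3 genes 2 rose and 5 fell, and of 2 H1 genes 1 rose and 1 fell. H3c3, counted as fallen, was detected on no mature array.

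The widest falls were in H2ac11, H2ac15 and H2ac7, at -2.96 ± 0.29, -2.92 ± 0.23 and -2.89 ± 0.21 (SE). H2ac18 rose from 6.32 ± 0.31 through 7.82 ± 0.38 to 11.71 ± 0.13 over the 3 stages (SD, n = 6), a difference of 5.39 ± 0.16 (adjusted p = 1.9e-14 in limma). H4c8 rose from 6.19 ± 0.29 to 6.78 ± 0.59 and 11.33 ± 0.22, by 5.15 ± 0.22, and H2bc18 from 7.64 ± 0.30 to 8.80 ± 0.29 and 11.34 ± 0.14, by 3.70 ± 0.13. No histone gene passed a genotype test. These genes are near-identical copies, so a probe may read several of them and the gene names are uncertain. The labelling kit starts from the poly(A) tail, which most such transcripts lack, so the array reads only part of them.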
